A study of Mus musculus with 4 samples.

Results

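*Calb2* (calretinin), *Calb1* (calbindin) and *Pvalb* (parvalbumin) encode small cytosolic proteins that bind calcium through EF-hands, a helix-loop-helix fold. All probes annotated with 1 of these symbols were taken, which gave 5 of 41174 probes and 3 of 18295 genes with a symbol: 3 probes for *Calb2*, 1 for *Calb1* and 1 for *Pvalb*. The 3 genes were selected on the same mutant over wild-type ratios that are given here, with those ratios already known. Their values are therefore a description and carry no test.

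The arrays set RNA of dissected midbrain (by the study's text, mesodiencephalic and retromammillary tegmentum) from *Lmx1a-dr/dr* embryos against that of wild-type embryos, both at E12.5. The dr/dr (*dreher*) embryos carried the drJ point mutation in the LIM homeodomain gene *Lmx1a*, from strain B6C3Fe a/a-Lmx1a dr-J/J kept on C57Bl/6J. There were 4 replicates, a to d, each a pool of 5 dr/dr midbrains hybridized on 1 dual-colour array against a single pool of 20 wild-type midbrains that was the same on all 4 arrays. The dr/dr RNA was labelled with Cy3 in replicates a and c and with Cy5 in replicates b and d. Every value is a log2 ratio of dr/dr over this wild-type pool, so the errors cover the spread of the 4 mutant pools and leave out that of wild-type embryos.

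EF-hand proteins of this kind take up calcium after it enters a neuron and shape how long and how far the signal spreads. Calretinin and calbindin are close relatives with several EF-hands each, and parvalbumin is a smaller and slower buffer. In the adult ventral midbrain, calbindin and calretinin are widely used to tell subgroups of dopaminergic neurons apart, and in the tectum and other regions all 3 mark classes of interneurons. Parvalbumin is generally a marker of mature neurons.

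The study also designed primers for *Calb2*, a pair to clone an in situ hybridization probe and a pair for quantitative PCR. They are shown because they define which stretch of the transcript these assays covered. The position of the array probes in the transcript was not given. The capitals mark the 17 bases that both forward primers share, so that both assays begin in the same stretch of the transcript, from a gene on mouse chromosome 8.
in situ probe forward: gagcTGACTGCATCCCAGTTC
in situ probe reverse: ccttcacccctttacacgg
qPCR forward: TGACTGCATCCCAGTTCctg
qPCR reverse: cttggacatcatgccagaacc

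The *Calb2* probes were dim but measurable. A probe was called above background when its mean spot intensity exceeded the mean of the local background by over 2 SD of that background, and 31231 probes (75.9%) met this in both channels on all 4 arrays. All 3 *Calb2* probes and the *Calb1* probe were among them, and the *Pvalb* probe was not. The probe MMAB034878, the brightest for *Calb2*, had dr/dr intensities of 60.1, 96.2, 62.2 and 136.1 in replicates a to d, against 167.2, 67.9, 153.7 and 82.9 for the wild-type pool. Before normalization, dr/dr was lower than wild-type in replicates a and c, where it carried Cy3, and higher in b and d, where it carried Cy5. Cy5 was the brighter dye over all probes too, with a median intensity of 137.4 to 174.2 per array and 70.0 to 84.7 in Cy3, and this difference was removed by loess. For MMAB034397 the dr/dr intensities were 54.6, 86.9, 59.4 and 105.4, against 153.4, 73.1, 164.8 and 81.8 for wild-type. For MMAB009619 they were 50.6, 78.7, 53.3 and 105.8, against 144.0, 63.9, 139.2 and 75.3 for wild-type. The weakest *Calb2* signals were those of dr/dr in Cy3, at 1.71 to 1.90 times the local background. In mean brightness over both channels, the 3 probes stood at the 46.8, 45.0 and 41.8 percentiles of all probes, which describes the spots and not the amount of RNA.

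**Figure D1:**
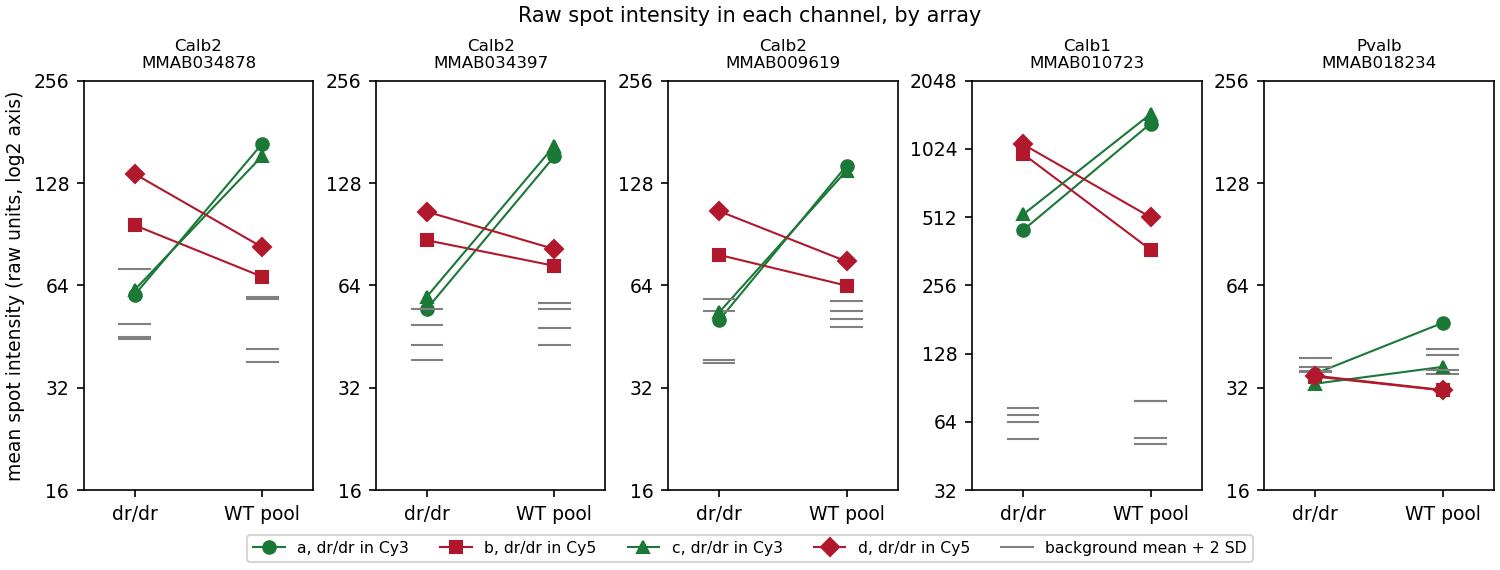
Mean spot intensity (raw units, log2 axis) of the 5 probes in dr/dr and in the wild-type pool, with 1 line per array, coloured by the dye of the dr/dr RNA, and grey dashes at the background mean + 2 SD of each spot. The *Calb2* and *Calb1* spots lie above their dashes on every array, and the *Pvalb* spot does so only for wild-type on replicate a.

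*Calb2* lay below wild-type with every probe on every array. MMAB034397 had log2 ratios of -0.55, -0.63, -0.53 and -0.59 in replicates a to d, a mean of -0.58 ± 0.0475 (SD, n = 4), or 67.1% of wild-type. These 4 values lie close together, with no array apart from the rest. MMAB009619 had -0.61, -0.52, -0.50 and -0.44, a mean of -0.52 ± 0.0666 (SD, n = 4), or 69.8% of wild-type. MMAB034878 had -0.50, -0.39, -0.36 and -0.29, a mean of -0.39 ± 0.0856 (SD, n = 4), or 76.6% of wild-type. In these last 2 probes replicate a was lowest and replicate d highest, while in MMAB034397 replicate b was lowest. The RNA came from dissected tissue with many cell types, so fewer calretinin cells and less *Calb2* RNA per cell cannot be told apart.

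The sign was the same in both dye orientations. With dr/dr in Cy3 the means of the 3 probes (MMAB034878, MMAB034397 and MMAB009619) were -0.43, -0.54 and -0.55, and with dr/dr in Cy5 they were -0.34, -0.61 and -0.48. The moderated standard errors of the limma fit, which holds a dye term, were 0.0399, 0.0302 and 0.0362. Averaged over the 3 probes, *Calb2* stood at -0.55, -0.51, -0.46 and -0.44 in replicates a to d, with a mean of -0.49 ± 0.0498 (SD, n = 4). Within an array, the highest and the lowest probe differed by 0.106 to 0.297. The 3 probes report on 1 transcript in the same RNA pools and are not replicates of the condition.

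**Figure D2:**
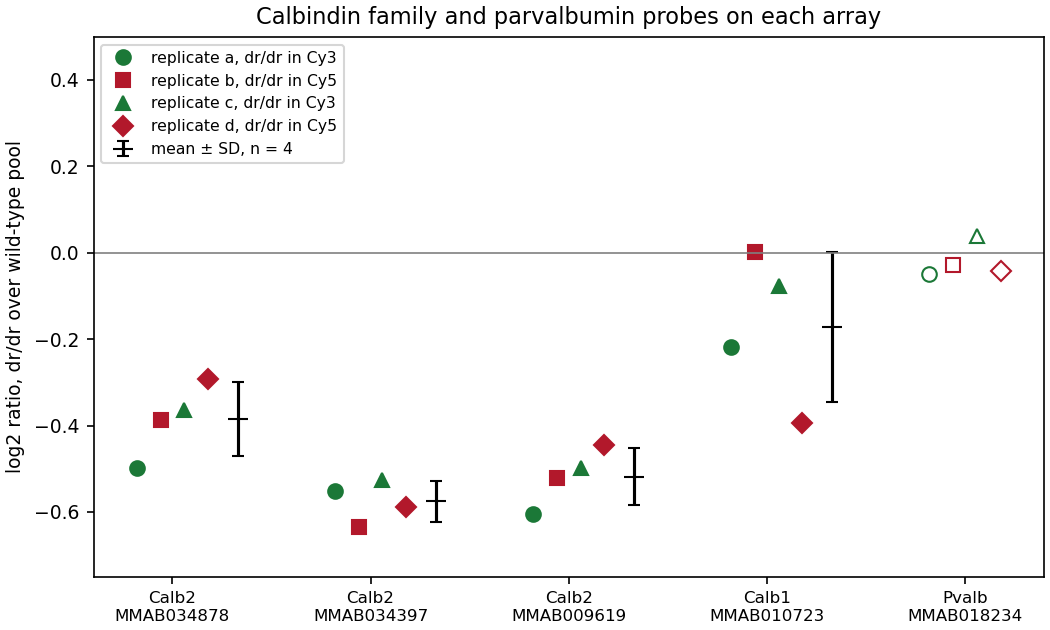
Log2 ratio of dr/dr over the wild-type pool for each probe on each array (points, coloured by the dye of the dr/dr RNA) with the mean ± SD over 4 arrays (black). All 12 *Calb2* points lie below 0, *Calb1* lies between -0.39 and 0.00, and the open *Pvalb* points come from spots that were not above background.

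Among all 41174 probes, 8.02% were below wild-type on all 4 arrays and 8.06% above it on all 4. Of the 4 *Calb2* and *Calb1* probes the counts were 3 and 0. The middle 95% of all mean ratios ran from -0.22 to 0.21 around a median of 0.00. Counted from the lowest mean ratio, the *Calb2* probes ranked 24, 46 and 155. With limma and Benjamini-Hochberg adjustment over all probes, 0% of probes and none of these 5 were called at an adjusted p under 0.05, while 7036 probes had an unadjusted p under 0.05. The permutation F2 test of the study's methods called 113 probes at a family-wise p under 0.05, of which 78, or 0.189% of all probes, were lower in dr/dr. Of the *Calb2* probes, MMAB034397 and MMAB009619 were among these 78, and MMAB034878 was not. Since the genes were selected on this contrast, these counts say nothing further about them.

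The size of the *Calb2* difference moved with the treatment of background. With the local background subtracted from each channel, a setting chosen after the data had been seen, the means were -0.95 ± 0.137, -0.85 ± 0.141 and -0.65 ± 0.159 (SD, n = 4) for MMAB034397, MMAB009619 and MMAB034878. In these units dr/dr stood at 51.7%, 55.4% and 63.8% of wild-type, and the log2 ratios were 1.65 to 1.68 times those without subtraction. Subtraction also widened the ratios of all probes above background, from an SD of 0.116 to 0.145. Among these 31231 probes the *Calb2* probes ranked 6, 11 and 35 from the lowest after subtraction, and 20, 41 and 143 without it. The normexp correction with an offset moved them the other way, to -0.46 for MMAB034397, -0.37 for MMAB009619 and -0.32 for MMAB034878. Over these and all other settings tried, the *Calb2* values ran from -0.95 to -0.32.

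**Figure D3:**
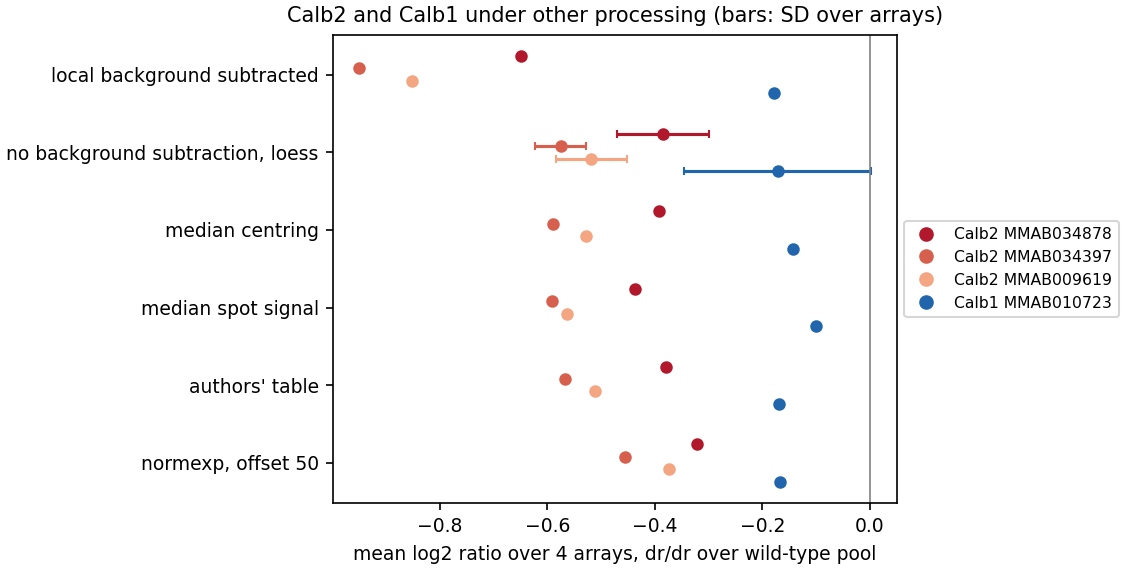
Mean log2 ratio of dr/dr over the wild-type pool (4 arrays) for the 3 *Calb2* probes and the *Calb1* probe under 6 ways of computing the ratios, with bars of SD over arrays for the ratios used in the text. The *Calb2* probes keep their order in every row and shift to between -0.95 and -0.65 when background is subtracted, while *Calb1* stays between -0.18 and -0.10.

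*Calb1*, the nearest relative of *Calb2* among the 3, had a bright probe. MMAB010723 gave dr/dr intensities of 448.8, 972.5, 526.1 and 1072.0 in replicates a to d, against 1325.3, 367.8, 1459.5 and 511.8 for wild-type, and stood at the 90.0 percentile of brightness. Its log2 ratios were -0.22, 0.00, -0.08 and -0.39, a mean of -0.17 ± 0.174 (SD, n = 4), or 88.8% of wild-type. The mean was as large as the spread of the arrays, replicate b lay at wild-type level, and replicate d lay lowest. Without replicate d the mean was -0.07, and without replicate b it was -0.27. By dye orientation it was -0.15 with dr/dr in Cy3 and -0.20 with dr/dr in Cy5. Subtracting the background left it at -0.18 ± 0.170. From the lowest of all probes, it ranked 1991, inside the middle 95%.

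Within each array, *Calb2* (mean of its probes) was lower relative to wild-type than *Calb1* by a log2 difference of -0.33, -0.52, -0.39 and -0.05 in replicates a to d, a mean of -0.32 ± 0.198 (SD, n = 4). The gap was small in replicate d, the array on which *Calb1* was lowest.

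*Pvalb* could not be compared between the genotypes. Its probe MMAB018234 had dr/dr intensities of 35.2, 34.5, 32.9 and 34.7 in replicates a to d, against 49.7, 31.4, 36.9 and 31.5 for the wild-type pool. The dr/dr signal was not well above background on any array, where the limits were 35.7, 36.8, 35.9 and 39.0. The wild-type signal exceeded its limit only on replicate a, at 49.7 against a limit of 41.6. Its 4 ratios appear only as open points in the plot of ratios by array, and no mean or fold change is given.

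Among the check genes, *Lmx1a* itself stood at -0.61, where a point mutation need not lower the RNA, and *Th*, which encodes tyrosine hydroxylase, at -0.55. The brightest probe of *Nr4a2*, a nuclear receptor needed for dopaminergic neurons, was at -0.75, and its other probes were at -0.09 and -0.06. Of the 5 markers used to check for midbrain, *En1* was at -0.48. *En2*, *Otx2*, *Pax5* and *Pax7* were at 0.05, 0.20, 0.03 and 0.12. All 5 were above background. So were *Emx1* and *Dlx2*, both measured forebrain markers, and the hindbrain markers *Hoxa2* and *Hoxb3* (2 of 3), so that these checks do not single out midbrain.

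Markers of cell types that can express calretinin or calbindin were set beside *Calb2* by the median of the mean log2 ratios of each list, using the brightest probe of each gene. In the list for the retromammillary and subthalamic region, 11 of 12 genes were measured, all above background, with a median of -0.20, and 4 were below wild-type on all 4 arrays. The median gene was *Foxp2*, at 0.00, -0.26, 0.19 and -0.74 in replicates a to d, and its other probes ran from 0.02 to 0.10. The median of this list was not computed under other settings. The list for dopaminergic neurons (10 of 10 measured and above background) had a median of -0.13, with 5 genes below wild-type on all arrays, and over all genes this share was 9.01%. Per array, the median of the first list lay between -0.23 and -0.02 and that of the second between -0.31 and -0.06, so both lay below 0 on every array. The medians of the neuronal calcium sensors (-0.06 to -0.02), of calmodulin and its relatives (-0.06 to -0.01) and of the pumps and exchangers (-0.06 to -0.01) also did so. The medians were 0.00 for GABAergic neurons (12 genes), 0.01 for glutamatergic neurons (7 of 8) and 0.02 for pan-neuronal genes (12 of 13), and the sensory ganglia and neural crest list (6 of 8), a source of calretinin neurons outside the brain, was at -0.01. limma called 0 genes in each of these lists. The permutation test called *Th* and *Nr4a2* lower and *Pou4f1*, a factor of tectal and red nucleus neurons, higher. The brightest *Pou4f1* probe was at 0.53, and its other probe was at -0.21. The part of these cell types in the *Calb2* values was not tested.

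Other genes for calcium binding and transport were given as 7 lists. Of their members, 96 genes were measured, 85 of them above background, with a median log2 ratio of -0.03, against 0.00 over all genes. No gene of the 96 was called by limma or by the permutation test, and 18 had an unadjusted limma p under 0.05, a share that was 18.3% over all genes. On all 4 arrays 17 of them were below wild-type and 6 above, and the shares over all genes were 9.01% and 6.75%. Their mean ratios ran from -0.38 to 0.28, and none of their brightest probes was as low as the highest *Calb2* probe (-0.39). The lowest, *Slc8a3*, was close to that probe but rested on replicate d. Its ratios in replicates a to d were 0.19, -0.08, -0.03 and -1.58. The dr/dr signal of *Slc8a3* was not above background on all arrays. *Scgn* (secretagogin), *S100g* (calbindin-D9k) and *Ocm* (oncomodulin) formed a list of their own. Like *Pvalb*, they were not above background in both channels on all arrays.

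By family, the medians lay between -0.07 and 0.05. The neuronal calcium sensors, which change shape on binding calcium and pass the signal on, had a median of -0.07 over 13 genes, between *Hpcal1* at -0.24 and *Kcnip4* at 0.13, and the median was -0.02 without replicate a. Calmodulin and its relatives had a median of -0.04 over 26 genes, between *Calm3*, a calmodulin gene, at -0.27 and *Cetn3*, a centrin of centrioles, at 0.23, and the median was -0.06 without replicate a. Other probes of these genes differed from the brightest ones, running from -0.02 to 0.03 for *Kcnip4* and from -0.22 to 0.14 for *Calm3*, and standing at -0.05 for *Cetn3*. The S100 proteins had a median of -0.02 over 13 genes, between *S100a11* at -0.15 and *S100a10* at 0.12. The penta-EF-hand proteins lay between *Capns1*, the small calpain subunit, at -0.15 and *Gca* (grancalcin) at 0.04. EF-hand proteins of the secretory pathway had a median of 0.05 over 7 genes, between *Sdf4* at -0.18 and *Nucb2*, the nesfatin precursor, at 0.28. This median was 0.0065 without replicate d and -0.0065 with the mean over the probes of each gene. Pumps, exchangers and store proteins had a median of -0.04 over 29 genes, and among those above background lay between *Calr*, the calcium-storing chaperone of the endoplasmic reticulum, at -0.29 and *Atp2c1*, a Golgi calcium pump, at 0.23. The brightest *Calr* probe had a moderated standard error of 0.0451 and a limma adjusted p of 0.111, and its other probe was at -0.65, lower than any *Calb2* probe.

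**Figure D4:**
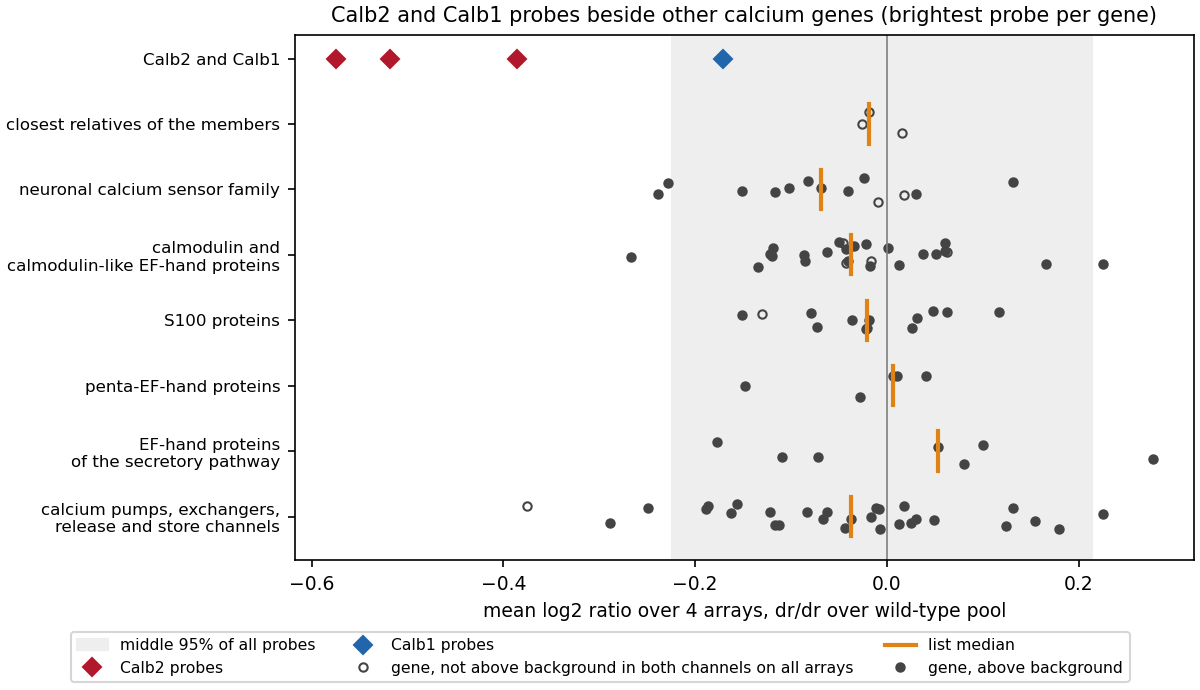
Mean log2 ratio over 4 arrays, dr/dr over the wild-type pool, of the *Calb2* and *Calb1* probes (top row) and of the brightest probe of each gene in the 7 lists of other calcium genes, with list medians in orange and the middle 95% of all probes in grey. The *Calb2* probes lie between -0.58 and -0.39, left of all 96 other genes shown, while *Calb1* lies among them.

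Genes with a pattern like that of *Calb2* were ranked by the root mean square difference of the 4 log2 ratios from those of MMAB034878, over 15739 genes above background, of which the median gene differed by 0.414. The 5 nearest were *ORF61* (0.0374), *Rab5b* (0.0431), *Selenon* (0.0462), *Ptov1* (0.0474) and *Bsg* (0.0505). *Rab5b* encodes a GTPase of early endosomes, *Selenon* a selenoprotein of the endoplasmic reticulum and *Bsg* (basigin) a cell surface glycoprotein. Their mean ratios lay between -0.42 and -0.36, and when the authors' ratios were used, 3 of the 5 were again among the 5 nearest. The other *Calb2* probes were less near than these, MMAB009619 at 0.134 with 86 genes nearer, and MMAB034397 at 0.211 with 388 nearer. *Th* differed by 0.173, *Calb1* by 0.284, *Lmx1a* by 0.328 and *Nr4a2* by 0.387. *Rspo2*, an activator of Wnt signalling outside the rule for named genes and added after its value was seen, differed by 0.785, with 15503 genes nearer. The measure counts level as well as shape, so a gene that fell further than MMAB034878 (-0.39) also lies far from it. *Lmx1a* at -0.61 and the brightest *Nr4a2* probe at -0.75 were both lower than that probe. By the paper, *Rspo2* was its most down-regulated gene, so the distance is no sign of a rise in dr/dr.

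The genes next to *Calb2* on chromosome 8 among those measured (gene order of GRCm38.p6) had mean ratios near or above wild-type. *Zfp612* was at 0.02 ± 0.383 and *Cmtr2* at 0.16 ± 0.153 (SD, n = 4). The mean of *Zfp612* joins opposite signs by dye. It was at 0.43 and 0.26 with dr/dr in Cy3 (replicates a and c) and at -0.34 and -0.27 in Cy5 (b and d). The neighbours of *Calb1* on chromosome 4 were *Tmem64* at 0.23 and *Decr1* at 0.06.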

How the data were processed

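RNA of 4 pools of dr/dr midbrains was measured against 1 wild-type pool on dual-colour Agilent arrays. The authors deposited ImaGene intensities of each spot and its local background for both channels, with no subtraction or normalization, and log2 ratios after their own print-tip loess on mean intensities. The columns of these ratios correlated with the ratios used here at r = 0.964 to 0.982 across probes, had medians of -0.0113 to 0.0174, and served as an alternative.

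Log2 ratios were computed from mean spot intensities without background subtraction, using limma 3.58.1 (R 4.3.3) and a single loess curve for each array at a span of 0.3 and 4 iterations, since the files show 1 block. Control spots (4046 of 45220) were given zero weight, and the remaining 41174 probes were fitted with lmFit and eBayes with a dye term, adjusted by Benjamini-Hochberg. Ratios of arrays a and c correlated at r = 0.639, of b and d at 0.579, and of arrays with opposite dyes at -0.342 to -0.290. The direction is fixed by the dyes in the labels. The labels do not say more on how separate the pools are, so the errors measure the spread of these pools. The permutation F2 test (5000 shuffles of the residuals) used Python 3.11.15, numpy 2.4.6 and pandas 2.3.3. Both tests were tested on simulated data. By the array annotation 34186 probes have 1 symbol, and 6988 without any were left unnamed. The array names no genome build, so no coordinates are printed, and the chromosomes and the order of neighbouring genes come from the RefSeq table of GRCm38.p6.

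The members and all gene lists were chosen with earlier results of these data known, and the lists hold genes the study names. Named are all probes of the members, the lowest and highest gene above background of each calcium list, any called gene, the 5 genes nearest to *Calb2*, and *Lmx1a*, *Th* and *Nr4a2*. The neighbours on the chromosome of *Calb2* and *Calb1*, *Slc8a3*, *Rspo2*, *Foxp2*, *Scgn*, *S100g*, *Ocm* and the midbrain, forebrain and hindbrain markers were added to these. Alternatives were normexp (offset 50), median centring, median spot signal, the authors' table, no dye term, dim probes left out, an intensity trend, the F2 test, the mean over a gene's probes and each array left out. Subtraction of the local background was added after the data had been seen.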

Additional observations from a re-analysis of the deposited data

Results flagged for a closer look

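Among the member probes and the lowest and highest gene above background of each calcium list, 1 had an array far from the others. *Capns1*, the small calpain subunit, had log2 ratios of -0.11, -0.26, -0.10 and -0.12 in replicates a to d, and the gap of replicate b to its nearest neighbour was 0.867 of the whole range. Chance gives a gap that passes the limit for this flag in about 1 of 20 groups of 4. All member probes but that of *Pvalb* and these lowest and highest genes were screened, so a flag can come from chance. *Slc8a3*, which was not above background on all arrays, was not screened. Its replicate d, at -1.58, also lay far from the others, which ran from -0.08 to 0.19.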

How the results depend on the processing

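Direction was kept by all 3 *Calb2* probes under every setting tried. Their values moved by more than the spread of the arrays with subtracted background (-0.65 for MMAB034878, -0.95 for MMAB034397 and -0.85 for MMAB009619) and with normexp (-0.46 for MMAB034397 and -0.37 for MMAB009619). Leaving out 1 array gave -0.42 to -0.35 for MMAB034878, -0.59 to -0.56 for MMAB034397, -0.54 to -0.49 for MMAB009619, -0.27 to -0.07 for *Calb1* and -0.04 to -0.03 for the median of the calcium genes, which was -0.0469 with median centring. Over all settings the list medians ran from -0.0863 to -0.0237 for the calcium sensors, from -0.0588 to -0.0190 for calmodulin and its relatives and from -0.0065 to 0.0977 for the secretory pathway. The number of probes that limma called was 0 with all arrays and with each left out in turn, 167 with median centring, 3051 with the median spot signal, 36 with dim probes left out and 399 with an intensity trend, and the F2 test called 113. The cause was not tested, except that fewer probes were tested when dim ones were left out. No paired analysis was possible because there is a single group of dr/dr pools set against 1 common pool. Precision is limited by the 4 arrays, and the dim *Calb2* spots by their signal over background.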
